A study of Mus musculus with 2 samples.

Results

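The probe sets of 9 genes that hold back the cell division cycle were compared between 2 mouse osteosarcoma lines, the inhibitors of cyclin-dependent kinases of the Kip type (Cdkn1b and Cdkn1c) and of the Ink4 type (Cdkn2a, Cdkn2b, Cdkn2c and Cdkn2d) and the retinoblastoma pocket proteins (Rb1, Rbl1 and Rbl2). The members were all probe sets whose only gene symbol in the platform's annotation was one of these names, which gave 15 probe sets out of 45037 non-control probe sets, for 9 of the 18193 genes on the array with a probe set of 1 symbol. Dunn is the parental line and is labelled non-metastatic; LM8 is a line derived from it and is labelled highly metastatic. Both are established cell lines with no treatment or introduced allele in the labels, grown alike in medium with 10% serum and 1% non-essential amino acids. There was 1 array per line, made from 10 µg of total RNA. No value therefore has a replicate check, no p-value is given, and how the 2 cultures were growing cannot be told apart from the line itself.

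Progress from G1 into DNA synthesis depends on the pocket proteins, which bind E2F transcription factors and silence their target genes until cyclin-dependent kinases phosphorylate them. Ink4 inhibitors bind Cdk4 and Cdk6 and keep D-type cyclins away, whereas Kip inhibitors bind assembled cyclin-kinase complexes, above all those of Cdk2. Loss of Rb1 or of the Cdkn2a locus is common in human osteosarcoma, and Rb1 also acts in the maturation of bone-forming cells.

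Of the 9 genes, 7 were measured, by the floor given below. On the brightest measured probe set of each, 2 of the 7 passed 2-fold upward in LM8, the Ink4 inhibitors Cdkn2c and Cdkn2d. Over all 11830 measured genes, 6.51% passed 2-fold upward and 8.84% downward. The pocket protein gene Rbl1 passed 2-fold upward on its dimmer measured probe set (3.81-fold) but not on its brighter one (1.35-fold). The Ink4 inhibitor Cdkn2b was 2-fold lower in LM8, and Rb1, Rbl2 and Cdkn1b lay close together in the lines. Cdkn2a and Cdkn1c were under the floor of both arrays. The floor was the median signal of each array, 21.1 for Dunn and 18.96 for LM8 in MAS5 signal units; weaker signals were raised to this level, and probe sets above it on at least 1 array counted as measured.

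RefSeq's promoter table (build GRCm38.p6) held a window for 7 of the 9 genes, those other than Cdkn1c and Rb1. The 250 bases before the annotated start are shown for the members with the largest differences, and for the farther upstream start of Cdkn2a, that of the Arf transcript, because only this window and that of Rbl1 held one of the E2F octamers searched. Capitals mark matches to any of these motifs, searched on both strands: the E2F octamers TTTCGCGC, TTTGGCGC, TTTCCCGC and TTTGCCGC, the CHR hexamer TTTGAA, the cAMP response element TGACGTCA, the CCAAT box and the GC box GGGCGG.
Rbl1, chr2:157204535-157204784, minus strand: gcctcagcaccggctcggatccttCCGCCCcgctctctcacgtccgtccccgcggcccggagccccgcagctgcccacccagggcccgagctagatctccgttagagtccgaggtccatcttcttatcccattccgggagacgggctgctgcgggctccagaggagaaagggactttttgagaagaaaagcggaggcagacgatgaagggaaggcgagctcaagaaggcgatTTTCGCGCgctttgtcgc
Cdkn2c, chr4:109666757-109667006, minus strand: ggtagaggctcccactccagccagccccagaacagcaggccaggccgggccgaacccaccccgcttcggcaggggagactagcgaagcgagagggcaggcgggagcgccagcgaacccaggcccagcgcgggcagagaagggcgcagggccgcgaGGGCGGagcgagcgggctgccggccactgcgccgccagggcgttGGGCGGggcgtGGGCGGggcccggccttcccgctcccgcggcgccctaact
Cdkn2d, chr9:21291210-21291459, minus strand: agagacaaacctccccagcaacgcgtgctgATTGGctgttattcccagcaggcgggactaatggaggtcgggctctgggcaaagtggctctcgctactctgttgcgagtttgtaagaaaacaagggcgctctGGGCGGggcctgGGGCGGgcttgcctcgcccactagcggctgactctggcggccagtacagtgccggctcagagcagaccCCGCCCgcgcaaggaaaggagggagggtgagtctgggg
Cdkn2b, chr4:89311033-89311282, minus strand: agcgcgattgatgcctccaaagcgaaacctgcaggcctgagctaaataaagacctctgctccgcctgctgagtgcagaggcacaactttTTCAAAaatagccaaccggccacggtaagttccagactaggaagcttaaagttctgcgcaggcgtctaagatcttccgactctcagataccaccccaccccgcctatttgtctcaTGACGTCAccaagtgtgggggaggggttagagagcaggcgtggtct
Cdkn2a (Arf start), chr4:89294620-89294869, minus strand: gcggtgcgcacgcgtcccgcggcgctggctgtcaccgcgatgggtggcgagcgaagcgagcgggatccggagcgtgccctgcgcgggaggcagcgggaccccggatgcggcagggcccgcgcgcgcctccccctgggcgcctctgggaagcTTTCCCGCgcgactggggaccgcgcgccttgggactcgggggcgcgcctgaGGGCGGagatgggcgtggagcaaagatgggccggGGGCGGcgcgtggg

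The window of Rbl1 held the E2F octamer TTTCGCGC from 18 to 11 bases before the start, and that of Cdkn2a held TTTCCCGC from 99 to 92 bases before it. An E2F octamer stood in 1.86% of 32851 windows of this length. The windows of Cdkn2c and Cdkn2d held no E2F octamer and 3 GC boxes each; a GC box stood in 32.7% of all windows. Cdkn2b was the only member whose window held a cAMP response element, from 46 to 39 bases before the start, against 1.55% of all windows. It also held a CHR hexamer on the opposite strand, as did the window of Rbl2, against 16% of all windows. Cdkn1b had 2 CCAAT boxes and 1 GC box, and Cdkn2d had 1 CCAAT box on the opposite strand, against 33.8% of all windows with a CCAAT box. The table gives a second, farther downstream start for Cdkn2a and for Cdkn2c, and neither of those windows held any of the motifs. No matches overlapped. A match of letters is a description of the sequence and shows no binding.

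**Figure D1:**
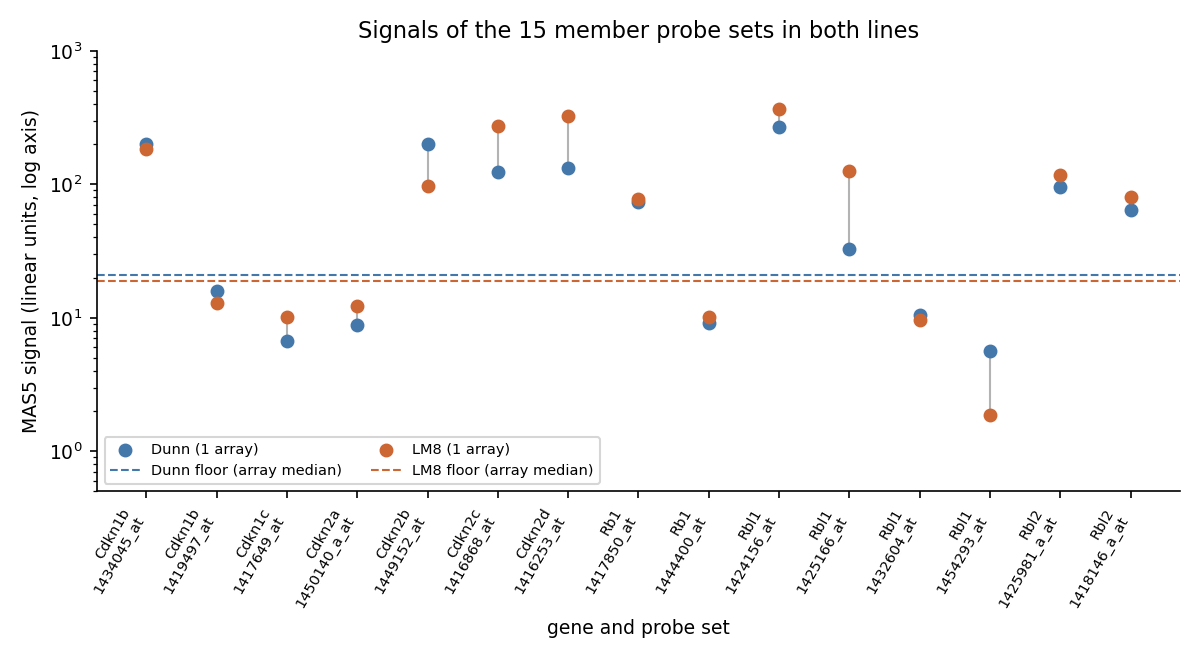
MAS5 signal (log axis) of each of the 15 member probe sets in Dunn (blue) and LM8 (orange), 1 array each, with the floor of each array as a dashed line. The 9 measured probe sets lie above the lines in both arrays, from 33.0 to 365, and the 6 others lie under both lines.

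Of the 15 member probe sets, 9 were measured, covering 7 genes, and all 9 lay above the floor on both arrays. Among the 9, 3 were at least 2-fold higher in LM8, 1 was at least 2-fold lower and 5 lay between. Over all 25144 measured probe sets, 5.91% were at least 2-fold higher and 7.79% at least 2-fold lower. With the brightest measured probe set standing for each gene, 2 of 7 genes were higher, 1 was lower and 4 lay between, where the background over 11830 measured genes was 6.51% higher and 8.84% lower. The median log2 ratio of LM8 over Dunn was 0.30 for these 7 genes and -0.08 for all measured genes. The median of all genes became 0.07 with arrays centred on their medians and 0.16 with scaling on the spiked hybridisation controls, and the higher genes, 42.4% of those called, became 56.9% and 65.9%.

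**Figure D2:**
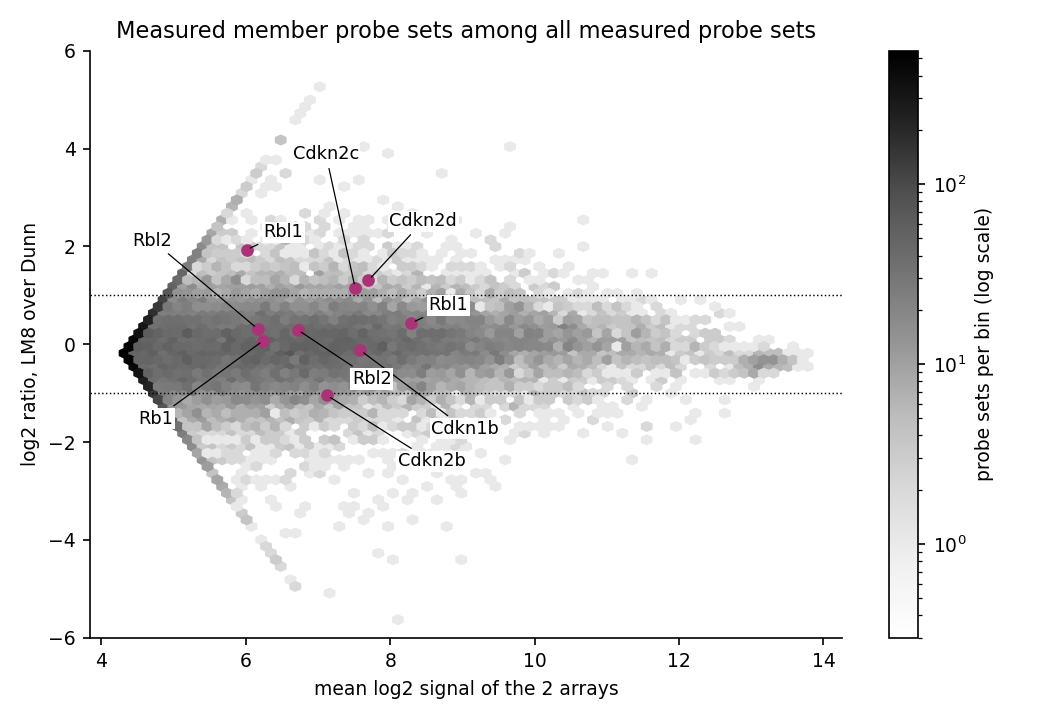
Log2 ratio of LM8 over Dunn against the mean log2 signal for all 25144 measured probe sets (grey, darker where more probe sets fall in a bin), with the 9 measured member probe sets as labelled points and 2-fold differences as dotted lines. Cdkn2c, Cdkn2d and the dimmer probe set of Rbl1 lie above the upper line, and Cdkn2b lies just under the lower one.

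Cdkn2d, which encodes the Ink4 inhibitor p19Ink4d, had a signal of 132 in Dunn and 327 in LM8 on its 1 probe set. The log2 ratio of 1.31, a 2.48-fold higher signal in LM8, was exceeded by 460 of 11830 measured genes. Cdkn2c, which encodes the Ink4 inhibitor p18, had a signal of 123 in Dunn and 272 in LM8 on its 1 probe set, a log2 ratio of 1.15 or 2.22-fold. Of all measured genes, 606 had a larger ratio than Cdkn2c. Both lay far above the floor in both lines, and their ratios stayed above 2-fold under all scalings and floors tried, from 1.18 to 1.55 for Cdkn2d and from 1.02 to 1.39 for Cdkn2c.

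Cdkn2b, which encodes the Ink4 inhibitor p15, a target of TGF-beta signalling in many cells, went the other way. Its 1 probe set had a signal of 200.2 in Dunn and 97.1 in LM8, a log2 ratio of -1.04 or a 2.06-fold lower signal in LM8. Only 960 of 11830 measured genes had a smaller ratio. The 2-fold call did not hold under each scaling: the log2 ratio was -0.89 with arrays centred on their medians, -0.80 with the hybridisation controls and -0.93 with a pseudocount, while the direction stayed the same. Among the 4097 probe sets within 0.5 log2 units of its mean signal, 7.54% were at least 2-fold lower.

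Cdkn2a, the gene of p16Ink4a and, from another reading frame, of the p53 pathway regulator Arf, had 1 probe set with signals of 8.79 in Dunn and 12.3 in LM8. Both lie under the floors, so no direction is given. The suffix of this probe set marks it as one that matches several transcripts of its gene; whether it reads both first exons was not tested. Its neighbour Mtap, which is often lost together with CDKN2A in human tumours, was above the floor in both lines on all of its 4 probe sets, with signals from 63.5 to 212 in Dunn and from 105 to 341 in LM8. The log2 ratios of the 4 Mtap probe sets ran from 0.16 to 0.84. Cdkn2b and Mtap, which flank Cdkn2a, thus both gave signal in both lines, and Cdkn2a did not rise above the floor in either. A signal under the floor does not show that a transcript is absent.

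Cdkn1b, the gene of the Kip inhibitor p27, stood at 201 in Dunn and at 184 in LM8 on its measured probe set, a log2 ratio of -0.12. The sign of this small ratio depended on the scaling, with 0.03 for array medians and 0.12 for the hybridisation controls. Its other probe set was under both floors, at 15.9 and 12.8. Cdkn1c, the imprinted gene of the Kip inhibitor p57, had 1 probe set with signals of 6.64 in Dunn and 10.1 in LM8, both under the floor. These Kip genes thus had 1 of 3 probe sets measured, with no 2-fold difference.

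Rb1, the gene of the retinoblastoma protein, stood at 73.8 in Dunn and at 77.8 in LM8 on its measured probe set, a log2 ratio of 0.08. Its second probe set was under both floors, at 9.11 and 10.2. Rbl2, the gene of p130, the pocket protein that prevails in resting cells, stood at 95.1 in Dunn and at 117 in LM8 on its brighter probe set and at 64.3 and 79.98 on the other. The log2 ratios of 0.30 and 0.32 differed by 0.02, against a median range of 0.52 between the measured probe sets of a gene. Both genes gave RNA signal in both lines, and neither was near 2-fold apart.

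Rbl1, the gene of p107, the pocket protein that accumulates in dividing cells and is itself a classical E2F target, had 4 probe sets, of which 2 were measured. The brighter one read 270 in Dunn against 365 in LM8, a log2 ratio of 0.44 or 1.35-fold. The dimmer one read 33.0 against 126, a log2 ratio of 1.93 or 3.81-fold. Both were higher in LM8, but they disagree about the size of the difference, and their SD of 1.06 was exceeded in 165 of 5521 genes with several measured probe sets. Only 237 of the 25144 measured probe sets had a larger ratio than the dimmer one, while 9.04% of the 4413 probe sets of like brightness were at least 2-fold higher. The annotation gives these probe sets different source transcripts; whether they read different forms of the Rbl1 RNA was not tested. The other 2 probe sets were under both floors, with signals of 10.6 and 9.63 on one and 5.61 and 1.87 on the other. As the brighter probe set stands for the gene, Rbl1 counts as between, and with measured probe sets averaged its log2 ratio was 1.18.

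The genes that act with the members were counted from lists of the same pathway, chosen with earlier results of these data known. For comparison, over all measured genes 6.51% were at least 2-fold higher and 8.84% at least 2-fold lower. All 12 G1 cyclin and kinase genes were measured; 2 of them passed 2-fold upward in LM8, none downward, and the median log2 ratio was 0.24. The D-type cyclin gene Ccnd2 stood at 415 in Dunn and at 934 in LM8, a log2 ratio of 1.17, and the E-type cyclin gene Ccne1 had 64.9 and 135, a ratio of 1.05. Other probe sets went down to 0.77 for Ccnd2 and 0.93 for Ccne1, so neither gene was 2-fold apart on all of its probe sets. Cdk4, a direct target of the Ink4 inhibitors, had signals of 1180 and 1219, and Cdk6, the other, had 764 and 634. Cdk2 had 198 and 313. The kinases bound by Ink4 inhibitors thus lay within 2-fold in the lines.

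Of 10 E2F and DP factor genes, 3 passed 2-fold upward in LM8 and the other 7 stayed within 2-fold, with 0.20 as the median log2 ratio. The signal of the activator gene E2f1 was 82.0 in Dunn against 249 in LM8, a log2 ratio of 1.60. The repressor gene E2f8 had 43.7 and 170, a ratio of 1.96 (0.58 on its other probe set), and the repressor gene E2f7 had 43.1 and 120, a ratio of 1.48. The lowest ratio of the list was that of the dimerisation partner gene Tfdp2, at -0.92, with 3 probe sets from -1.22 to -0.45. With the floor at the 75th percentile the count of 3 higher genes became 1, where 5.13% of all measured genes were 2-fold higher. E2f4 and E2f5, whose products pair mainly with the p107 and p130 pocket proteins, had log2 ratios of 0.30 and -0.33, the latter with probe sets up to 1.21.

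Pocket proteins p107 and p130 also work within the DREAM complex, built on the MuvB core, which takes up Myb factors when cells divide. Among 8 MuvB and partner genes, 4 passed 2-fold upward in LM8 and 4 stayed within 2-fold, and the median was 0.77. Mybl1 (signals of 44.6 and 163) and Mybl2 (46.2 and 147) had log2 ratios of 1.87 and 1.67, although their other probe sets gave 0.69 and 0.46. The MuvB subunit genes Lin54 and Lin37 had ratios of 1.24 and 1.08. Foxm1, a transcription factor of mitotic genes, had 0.06 on its brightest probe set and up to 0.84 on others. None of 10 measured genes for chromatin partners of pocket proteins was 2-fold apart; their median was 0.20, with the deacetylase gene Hdac1 highest at 0.52. The lowest was the histone methyltransferase gene Kmt5b, at -0.68 (243 and 151), whose 5 probe sets ran from -1.01 to 1.03.

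The classical E2F target genes were counted at the RNA level, on a list chosen with earlier results of these data known. Of 21 measured, 11 passed 2-fold upward in LM8 and 10 stayed within 2-fold. Over all measured genes, 6.51% were at least 2-fold higher. On the brightest probe set of each gene all 21 log2 ratios were above 0, down to 0.04 for Mcm2, with 1.22 as the median. For 4 of the genes another measured probe set was below 0: Mcm2 at -0.18, Mcm5 at -0.19, Rrm1 at -0.09 and Cdt1 at -0.09. The cyclin gene Ccna2 had a log2 ratio of 2.58 (signals of 195 and 1167), the mitotic kinase gene Cdk1 2.04 (349 and 1439), the methylation maintenance gene Uhrf1 1.92 (163 and 615) and the polymerase gene Pola1 1.82 (150 and 528). These genes also follow the share of dividing cells, and their part in the ratios of Rbl1, Cdkn2c and Cdkn2d was not tested.

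**Figure D3:**
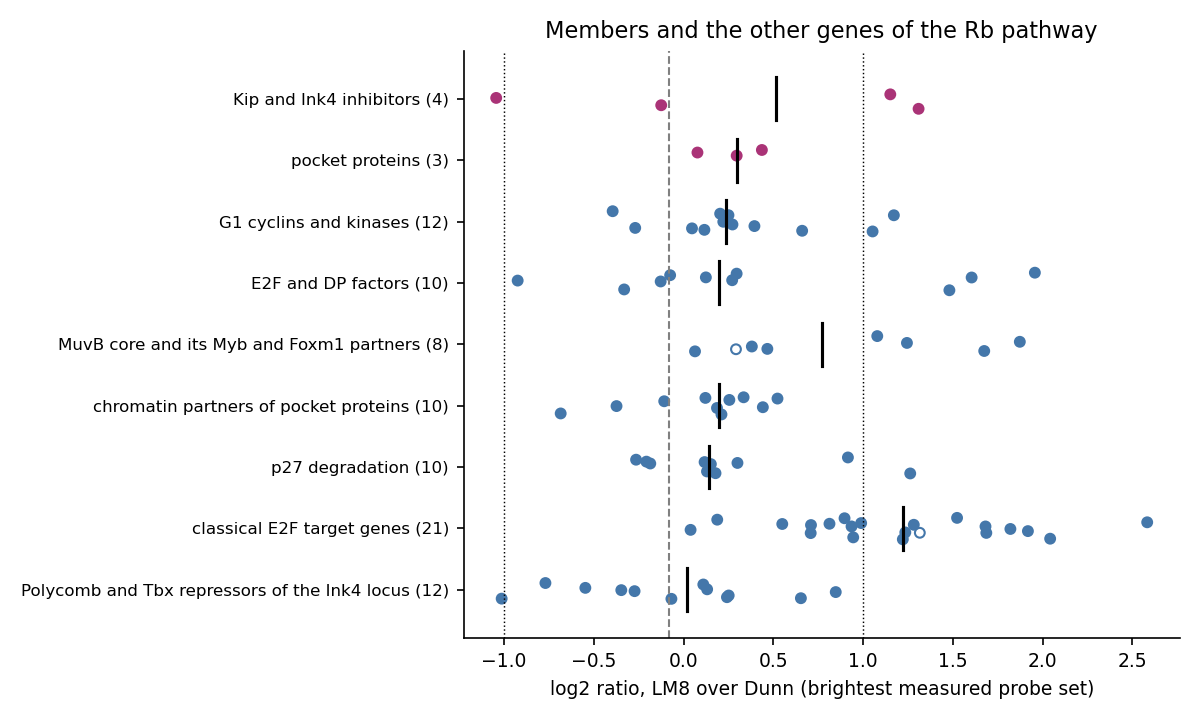
Log2 ratio of LM8 over Dunn for each measured gene of 9 lists (points; open where an array is at its floor), with the list's median as a black bar, the median of all measured genes as a dashed line and 2-fold differences as dotted lines; the number of measured genes follows each list's name. The Kip and Ink4 inhibitors spread from -1.04 to 1.31, while the E2F targets, each on its brightest probe set, lie above 0.

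Of the genes that mark the p27 protein for degradation or act beside them, 10 of 11 were measured. Of these, 1 passed 2-fold upward in LM8 and the other 9 stayed within 2-fold, and the median was 0.14. The higher one was Cks1b, a cofactor of the Skp2 ubiquitin ligase, at 1135 in Dunn against 2722 in LM8, with a log2 ratio of 1.26. Skp2 itself, which recognises p27, had signals of 252 and 476, a ratio of 0.92, with 6 probe sets from 0.64 to 1.41. The count of 1 higher gene became 2 with array medians, the hybridisation controls, probe sets averaged or without shared-probe suffixes. At 3-fold it became 0. The ratios of Cks1b and Skp2 stand beside a ratio of -0.12 for the Cdkn1b RNA. Protein was not measured here. Among 12 measured Polycomb and Tbx genes, whose products repress the Ink4 locus in many cells, none was 2-fold higher and 11 stayed within 2-fold. Cbx8 was 2.02-fold lower (69.9 and 34.6), and the median was 0.02. This list left out the Polycomb gene Ezh2, counted among the E2F targets, which was 2.43-fold higher in LM8 (253 and 615). The count of 0 higher genes became 1 with the hybridisation controls or without shared-probe suffixes. The other probe set of Cbx8 had a log2 ratio of -0.61, and the count of 1 lower gene became 0 with array medians, quantile normalization, lowess centring, the hybridisation controls, a pseudocount, a floor at the 75th percentile or probe sets averaged. The Polycomb gene Eed had a ratio of 0.85 and Cbx2 one of -0.77, and Bmi1, the best known repressor of Cdkn2a, had signals of 638 and 609.

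The chromosome neighbours of the members, 5 array genes on each side in the gene order of GRCm38.p6, were set beside them. Counting each neighbour once, 50 of 80 were measured. Of the 50, 2-fold was passed upward by 1 and downward by 6, and their median log2 ratio was 0.12. Over all measured genes, 6.51% were at least 2-fold higher and 8.84% at least 2-fold lower. The 2 Ink4 genes that were higher in LM8 lay above their measured neighbours. The 8 measured neighbours of Cdkn2d ran from -0.48 to 0.29. Only 4 of the 10 neighbours of Cdkn2c were measured, and they ran from -1.34 to 0.41. The lowest of these, Ttc39a, was at least 2.54-fold lower, with LM8 under its floor. Beside Cdkn2b, the neighbour Dmrta1 was 2.09-fold higher in LM8, with a Dunn signal of 21.8 near the floor and 45.6 in LM8, so that Mtap, Cdkn2b and Dmrta1 did not share a direction.

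On chromosome 6, the 4 measured genes on one side of Cdkn1b had log2 ratios of -0.87 or lower, beside -0.12 for Cdkn1b. Gpr19, a receptor gene, stood at 104 in Dunn and at 22.8 in LM8, 4.55-fold lower, and Crebl2 was at least 2.36-fold lower, with LM8 under its floor. Dusp16 and Borcs5 had log2 ratios of -0.87 and -0.98. On chromosome 14, Itm2b near Rb1 was 3.03-fold lower in LM8 (1907 and 629), whereas Rb1 and the other 5 measured neighbours lay within 2-fold. On chromosome 2, Samhd1 and Dsn1 beside Rbl1 had ratios of 0.89 and 0.87, while on the other side Blcap was 2.23-fold lower and Src had a ratio of -0.90. Kcnq1ot1, the noncoding RNA of the imprinted domain that holds Cdkn1c, gave 155 in Dunn and 159 in LM8, and Cdkn1c itself was under the floor in both.

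**Figure D4:**
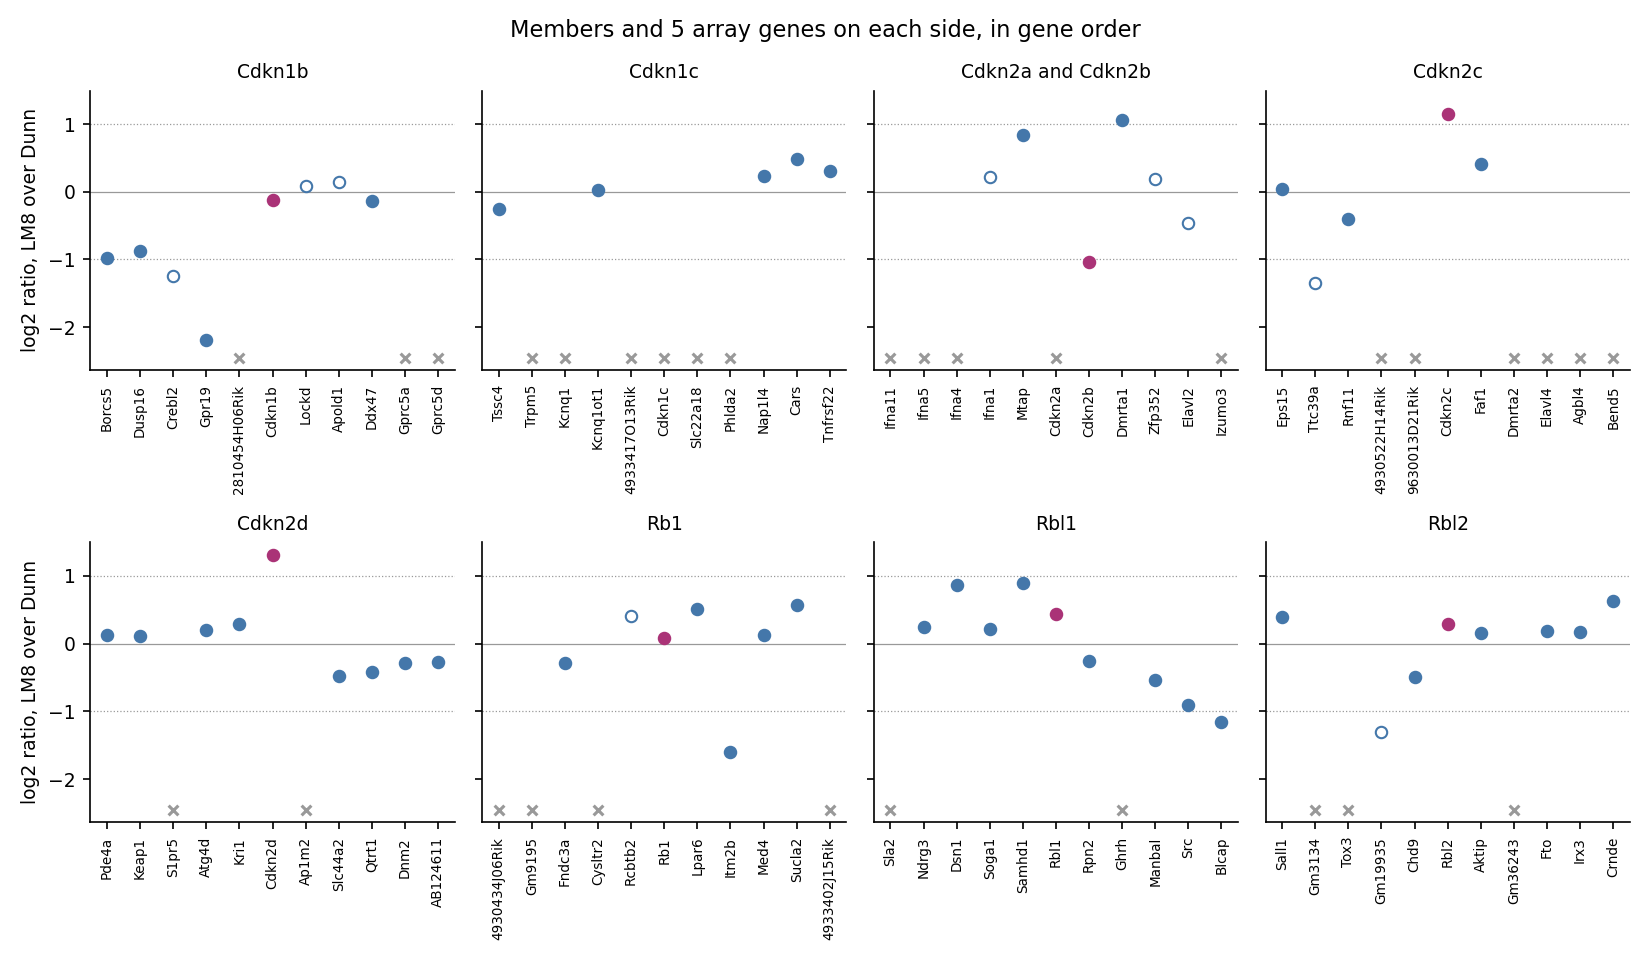
Log2 ratio of LM8 over Dunn for the members (purple) and the 5 array genes on each side of them in gene order (blue; open where an array is at its floor; grey crosses at the bottom for genes under both floors, which have no ratio). Cdkn2c and Cdkn2d lie above all their measured neighbours, and the 4 measured genes to the left of Cdkn1b lie at -0.87 or lower.

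Markers were used to check the labelled cell type. Of 12 osteoblast lineage genes 9 were measured, with 1 higher in LM8, 2 lower and 6 between; Alpl, Col1a1 and Sp7 lay far above the floors in both lines. The higher gene was Omd, at 164 in Dunn and 823 in LM8 (5.01-fold), and the lower ones were Ibsp (239 and 96.6, 2.48-fold) and Pth1r (1115 and 492, 2.26-fold). Phex was under both floors. On the brightest probe set of each gene, the sum of the signals was 20719 in Dunn and 20686 in LM8. Most of it came from the collagen gene Col1a2 (8785 and 7350) and the matrix protein gene Sparc (5263 and 5248). The 3 probe sets of Col1a2 disagreed, with log2 ratios from -0.26 to 1.73, and the 3 of Sparc ran from -0.02 to 0.63. Of 10 macrophage and leukocyte genes 8 were measured, none was 2-fold higher, 2 were lower (Csf1r and Lyz2) and 6 lay between. The probe sets of Csf1r ran from -1.49 to 0.48, and 1 gene was lower with probe sets averaged or with the hybridisation controls. With signals under the floor raised to it, their sum was 327 in Dunn and 183 in LM8, where 5 of the 8 were under the floor; Ptprc and Itgam were under both floors. Of 6 endothelial genes 2 were measured, with a summed signal of 180.1 in Dunn and 95.3 in LM8. Vwf was lower in LM8 (152 and 67.3) and Kdr was alike (27.95 and 27.96). Pecam1, Cdh5, Tek and Emcn were under both floors. Both sums of other cell types were lower in LM8, the endothelial one through Vwf alone. The macrophage sum was partly fixed beforehand, because 5 of its 8 genes counted as measured through Dunn only. Their Dunn signals ran from 23.1 to 44.8, against a floor of 21.1. Of 80 olfactory and vomeronasal receptor probe sets, taken as silent, 10% passed the Dunn floor and 2.5% the LM8 floor. Csf1r, Cd14 and Laptm5, over the floor in each line, had log2 ratios of -1.49, -0.96 and -0.40. No member's direction is read from these sums. The part of other cell types in the ratios of Cdkn2b, Cdkn2c and Cdkn2d was not tested.

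**Figure D5:**
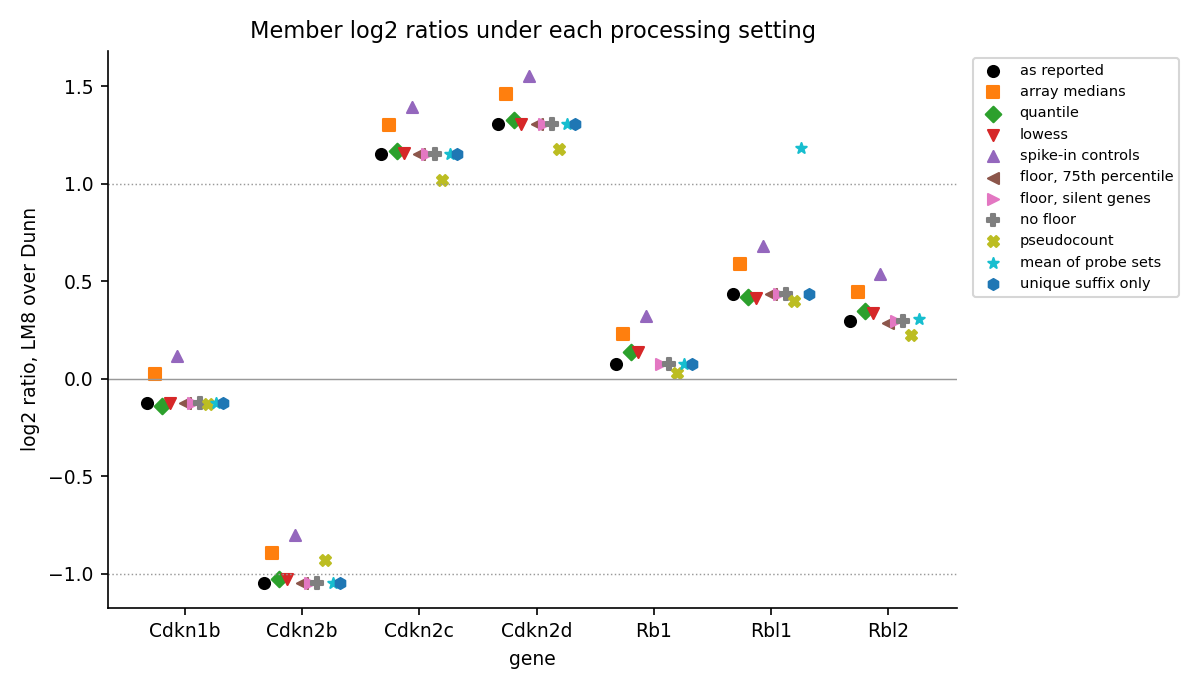
Log2 ratio of LM8 over Dunn for the 7 measured member genes as reported (black) and under 10 other scalings, floors and gene summaries (other symbols), with 2-fold differences as dotted lines. Cdkn2c and Cdkn2d stay above the upper line, Cdkn2b crosses the lower one, and Rbl1 passes 2-fold only with its probe sets averaged (1.18).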

How the data were processed

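RNA of 2 cell lines was measured on 1 Affymetrix array each. The deposited values are linear probe set intensities that the authors computed, using MAS5 per the submitters' processing notes; its version and settings are not given in the sources used here. Both arrays had a 2% trimmed mean of 100 as deposited. The 64 control probe sets were left out, the others put on a common trimmed mean, and signals under the array median raised to it. Of 45037 non-control probe sets, 34945 had 1 gene symbol, 932 several and 9160 none in the platform annotation; identifiers matched RefSeq genes for 99.4% of the first, and for all 15 members. Differences are log2 of LM8 over Dunn, called at 2-fold. Folds hold for these 2 arrays, whose number limits the precision. For 5521 genes with several measured probe sets the SD of their log2 ratios was 0.30 in the median. Over 12 spiked hybridisation control probe sets the SD of the log2 ratios was 0.099. Neither spread is a replicate error. Detection calls were not used here.

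All members and, of each other list, mainly the genes with the largest ratios (up to 4) are named; others are named to spell out a role or a neighbour. The members and lists were chosen with earlier results of these data known. The alternatives were 4 scalings, 4 floors, 3 gene summaries and 2 folds. The steps were tested on simulated data with changes well past 2-fold in bright genes only. Calls near 2-fold or near the floor were not tested in this way. The scripts used Python 3.11.15 with pandas 2.3.3 and numpy 2.4.6, took lowess from statsmodels 0.14.6 and trimmed means from scipy 1.17.1, and drew with matplotlib 3.10.9.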

Additional observations from a re-analysis of the deposited data

How the results depend on the processing

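With 1 array per line no replicate could be left out. No paired analysis was possible because each line has 1 array and the labels carry no replicate numbers. Of 68 recomputed member log2 ratios, 67 moved by less than the median SD between probe sets; the exception was Rbl1, at 1.18 with probe sets averaged. No ratio of a member called 2-fold changed sign. The count of 2 higher genes became 0 at 3-fold, and that of 3 higher probe sets became 1. At 3-fold, 2.49% of all measured genes and 1.86% of all measured probe sets were higher. The 1 lower gene and 1 lower probe set, both Cdkn2b, became 0 at 3-fold, where 2.84% of all measured genes were 3-fold lower. Both also became 0 with array medians, the hybridisation controls and a pseudocount, where 6.55%, 5.4% and 5.18% of genes were 2-fold lower. With no floor and no filter, 2 of 15 member probe sets were lower, against 20.4% of all 45037 probe sets. The second was a dim one of Rbl1 (5.61 and 1.87). With the floor at the 75th percentile Rb1 was no longer measured, and without shared-probe suffixes Rbl2 had no value. Of 312 list counts, 256 stayed within 1.5 times the reported one. Among the lists, the 11 higher E2F targets became 6 at 3-fold and 18 at 1.5-fold, and the 4 higher MuvB genes became 0 with the floor at the 75th percentile. The 2 higher G1 cyclin genes became 0 at 3-fold and with all probe sets of a gene required to pass, and 1 with probe sets averaged, without shared-probe suffixes, with a pseudocount or with the floor at the 75th percentile. The 2 lower macrophage genes became 1 with all probe sets required to pass or without such suffixes, and 0 at 3-fold or with the floor at the 75th percentile.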

Other observations

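The E2F octamers of the promoter search were also counted over the pathway lists. At least 1 octamer stood in the windows of 583 of 27025 genes in the promoter table (2.16%) and in 8 of the 18 classical E2F targets that had a window, namely Mcm5, Mcm6, Mcm7, Cdc6, Orc1, Pola1, Cdk1 and Uhrf1. On the brightest probe set, the log2 ratios of these 8 ran from 0.71 for Mcm6 and Mcm7 to 2.04 for Cdk1. Another probe set of Mcm5 had -0.19. The targets not among the 8 ran from 0.04 for Mcm2 to 2.58 for Ccna2. Among the E2F and DP genes it stood in 3 of 8, E2f3 (-0.13), E2f7 (1.48) and Tfdp1 (0.27). An octamer also stood in 2 of 8 G1 cyclin and kinase genes (Cdk2 and Cdc25a) and in 2 of 8 chromatin partner genes (Suv39h1 and Kmt5c). The same held for 1 of 5 MuvB and partner genes (Lin52), 1 of 10 p27 degradation genes (Rbx1) and 1 of 10 Polycomb and Tbx genes (Suz12). Among the members it stood in Rbl1 (0.44 and 1.93) and in Cdkn2a, which was under both floors. The E2F targets were listed as such because of what is known of their control, so the count describes the list and supports no statement on Rbl1.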
